A study of Mus musculus with 16 samples.

Results

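Amino acid supply and the integrated stress response were followed through 43 genes in primary preadipocytes, the fibroblast-like cells that can become fat cells, from mouse brown and white fat. The genes were chosen by name from the deposited expression table, out of 29060 gene symbols in all, and fall into 10 stress factors, 6 serine and one-carbon enzymes, 6 other amino acid enzymes, 8 amino acid transporters and 13 tRNA synthetases. They were chosen with earlier results of these data known. The table holds 332 entries (transcript records) for them out of 144549 entries used, and all 43 passed the filter on low values. Preadipocytes came from the stromal-vascular fraction of interscapular brown fat or inguinal white fat of C57BL/6N UCP1 reporter mice, a strain that all 4 groups share. Cells had received Fgf8b, a splice form of fibroblast growth factor 8, or control treatment, and the study asked how the transcriptomes of the 2 depots differ with each.

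The groups are white preadipocytes with Fgf8b (libraries 2, 4, 6 and 8) and their controls (1, 3, 5 and 7), and brown preadipocytes with Fgf8b (10, 12, 14 and 16) and their controls (9, 11, 13 and 15). The dose and duration of Fgf8b and the age and sex of the mice are not given in these sources. The design text speaks of 3 cultures while each group holds 4 libraries, and nothing says which libraries share a culture, so the p-values cover the spread among these libraries, which may be technical in part. Depot runs with library number, and the deposited table gave 145 of 299 repeated accessions unequal values in white libraries against 0 in brown libraries, so depot and separate handling of the libraries or tables cannot be told apart. None of the member entries is a repeated accession.

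When amino acids run short, the endoplasmic reticulum is overloaded or haem is low, kinases phosphorylate the translation factor eIF2, general protein synthesis falls and the mRNA of the transcription factor ATF4 is translated more. ATF4, paired with a C/EBP protein, then switches on genes that import amino acids, make serine, asparagine and proline, charge tRNAs and feed one-carbon units into nucleotide synthesis. Growth factor signalling through mTORC1 is known to raise part of the same gene set, and ATF4 protein is controlled largely at translation, so mRNA levels do not measure its activity.

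Levels below are RPKM (reads per kilobase of transcript, scaled to library depth) of the RefSeq transcript with the highest mean of each gene. Values listed by library run in order of library number. Differences are log2 differences of RPKM summed over all entries of a gene, with 0.5 added, and are called when limma's Benjamini-Hochberg adjusted p over 15222 genes is under 0.05. Libraries held 13.7 to 20.1 M reads, as the steps between low values show. Library 15, a brown control, stood apart: its genes lay a median 0.16 log2 from the rest of its group, against 0.065 to 0.095 for the other 15 libraries. Over the members alone library 15 lay 0.12 log2 away and white Fgf8b library 2 lay 0.099 away, against 0.030 to 0.065 for the rest. One label calls the cells primary adipocytes while the design text calls them preadipocytes. All 10 preadipocyte markers averaged at least 1 RPKM in every group, while of 6 mature adipocyte markers only Fabp4 did, with Lep and Cfd at 0 in every library. The summed preadipocyte markers were 1839 to 1986 RPKM in white Fgf8b libraries against 4607 to 4839 in white controls, and 860.0 to 926 RPKM in brown Fgf8b libraries against 2862 to 3403 in brown controls. The markers did not move one way: 4 of the 10 rose and 6 fell in white preadipocytes, and 1 rose and 8 fell in brown. Their part in the results below was not tested. In bulk RNA, fewer cells of a type and less RNA per cell cannot be told apart.

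The DNA element bound by ATF4 with a C/EBP partner, the C/EBP-ATF response element, has the core TGATGNAA, which was searched on both strands from 250 bases before to 50 bases after each gene start in RefSeq promoters (build GRCm38.p6). It occurred in 13 of the 34 members with a promoter in the table (38.2%), against 1219 of 27025 gene symbols (4.51%). Member matches on a chromosome that was filtered out were not counted, here or by class. The 34 members and the share over all gene symbols kept that chromosome, so the member counts are minimum counts. The members were picked by name as genes of the response that ATF4 drives, so a larger share among them could be expected from the choice of list. The matches fell in 4 of 10 stress factors, 0 of 5 serine and one-carbon enzymes, 2 of 5 other amino acid enzymes, 2 of 6 transporters and 5 of 8 tRNA synthetases with a promoter. The matches below belong to genes with the largest differences of response between depots or to genes that moved in opposite directions in the 2 depots, with 11 flanking bases on each side and the core in capitals, read on the strand given.
Trib3, chr2:152344028-152344057 (+): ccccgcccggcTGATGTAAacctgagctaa
Chac1, chr2:119351038-119351067 (-): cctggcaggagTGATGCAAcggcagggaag
Nupr1, chr7:126625562-126625591 (+): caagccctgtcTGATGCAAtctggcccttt
Asns, chr6:7693214-7693243 (-): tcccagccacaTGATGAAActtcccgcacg
Pycr1, chr11:120643833-120643862 (-): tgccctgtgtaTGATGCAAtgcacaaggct
Slc7a11, chr3:50443661-50443690 (-): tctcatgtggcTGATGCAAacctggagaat
Slc7a11, chr3:50443642-50443671 (+): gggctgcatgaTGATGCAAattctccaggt
Gars, chr6:55037960-55037989 (-): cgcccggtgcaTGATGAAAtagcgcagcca
Yars, chr4:129189895-129189924 (+): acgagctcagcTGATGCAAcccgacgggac
The Slc7a11 matches lie on opposite strands, and their stretches overlap. The Asns core lies 23 bases upstream of the gene start and that of Chac1 193 bases upstream. The Trib3 and Yars cores lie 15 and 4 bases downstream. A match describes letters in this window and is not evidence of binding, and no match says only that these letters were not counted there.

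With Fgf8b, the stress factors and amino acid transporters mostly fell, and most of them fell further in brown than in white preadipocytes. In white preadipocytes 22 of the 43 members rose and 19 fell, where 65.7% of all genes tested were called either way, 36.3% higher and 29.5% lower. In brown preadipocytes 6 members rose and 32 fell, where 71.4% of all genes were called, 36.7% higher and 34.7% lower. The median log2 difference of the members was 0.10 in white and -0.54 in brown preadipocytes, beside 0.037 and 0.0087 over all genes tested. Of the members, 6 rose in both depots, 19 fell in both, 11 rose in white and fell in brown, 5 rose in white and were not called in brown, and 2 were not called in white and fell in brown. Such pairs of calls were not counted over all genes, so whether these joint counts are unusual was not tested.

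**Figure D1:**
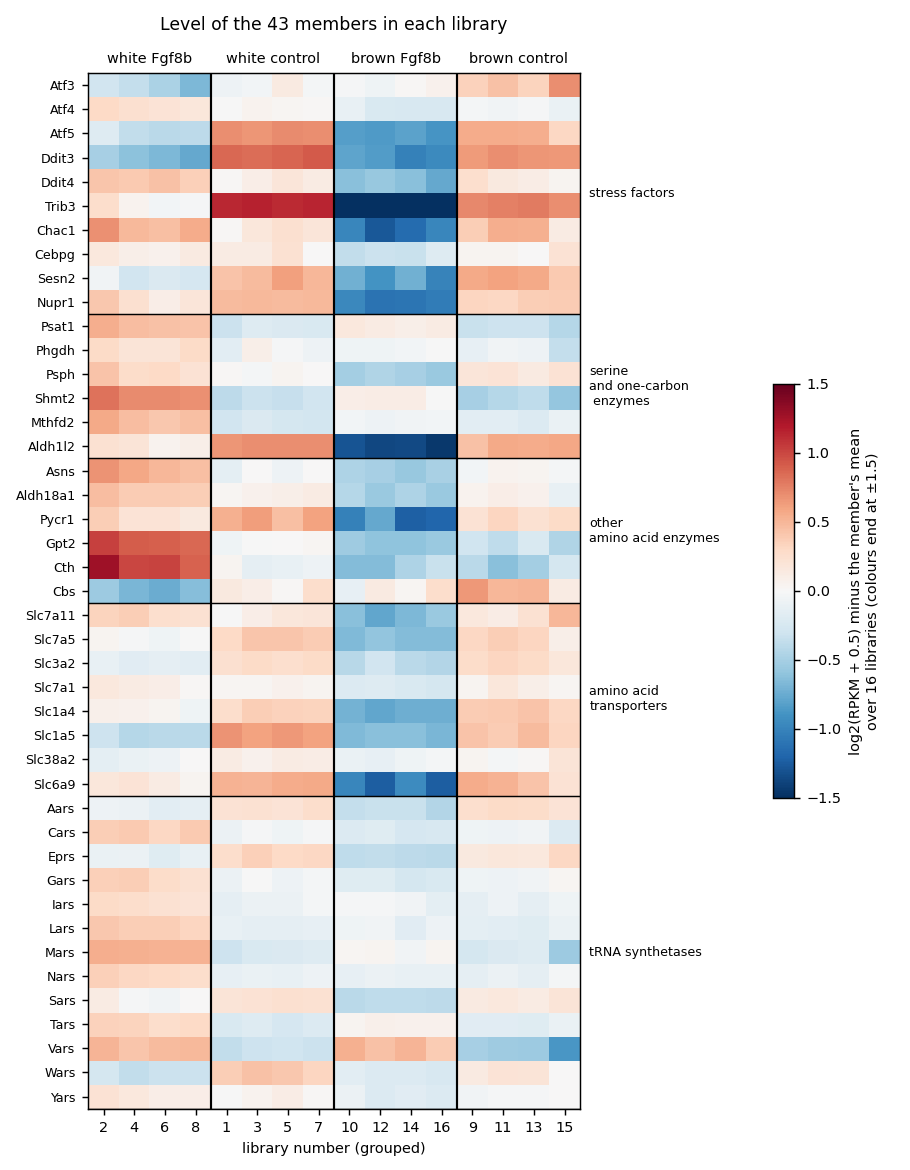
Level of each of the 43 members (rows, by class) in each of the 16 libraries (columns, by group), as log2(RPKM + 0.5) minus the mean of that member over the 16 libraries, with red above and blue below that mean and colours ending at 1.5. Stress factors and transporters are mostly blue in the brown Fgf8b columns, and Shmt2, Gpt2 and Cth are reddest in the white Fgf8b columns.

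The difference between the 2 responses was tested directly. Brown minus white, it was called negative for 35 members and positive for 3, where 34.9% of all genes were called, 17.8% negative and 17.1% positive. The median over the members was -0.43, beside -0.0093 over all genes. The 3 positive ones were Cbs, Vars and Wars, and the 5 not called were Atf3, Ddit3, Phgdh, Slc1a5 and Slc38a2. Among the members 12 had a negative difference of at least 2-fold and 1, Cbs, a positive one, while 3.97% of all genes were called and at least 2-fold. The Cbs difference of 1.34 was 0.41 with 1 transcript alone. That transcript was below 1 RPKM in every library, where the 0.5 added shrinks log2 differences. Without library 15 the counts were 36 negative and 3 positive, and 32 lower and 6 higher for the brown response itself.

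**Figure D2:**
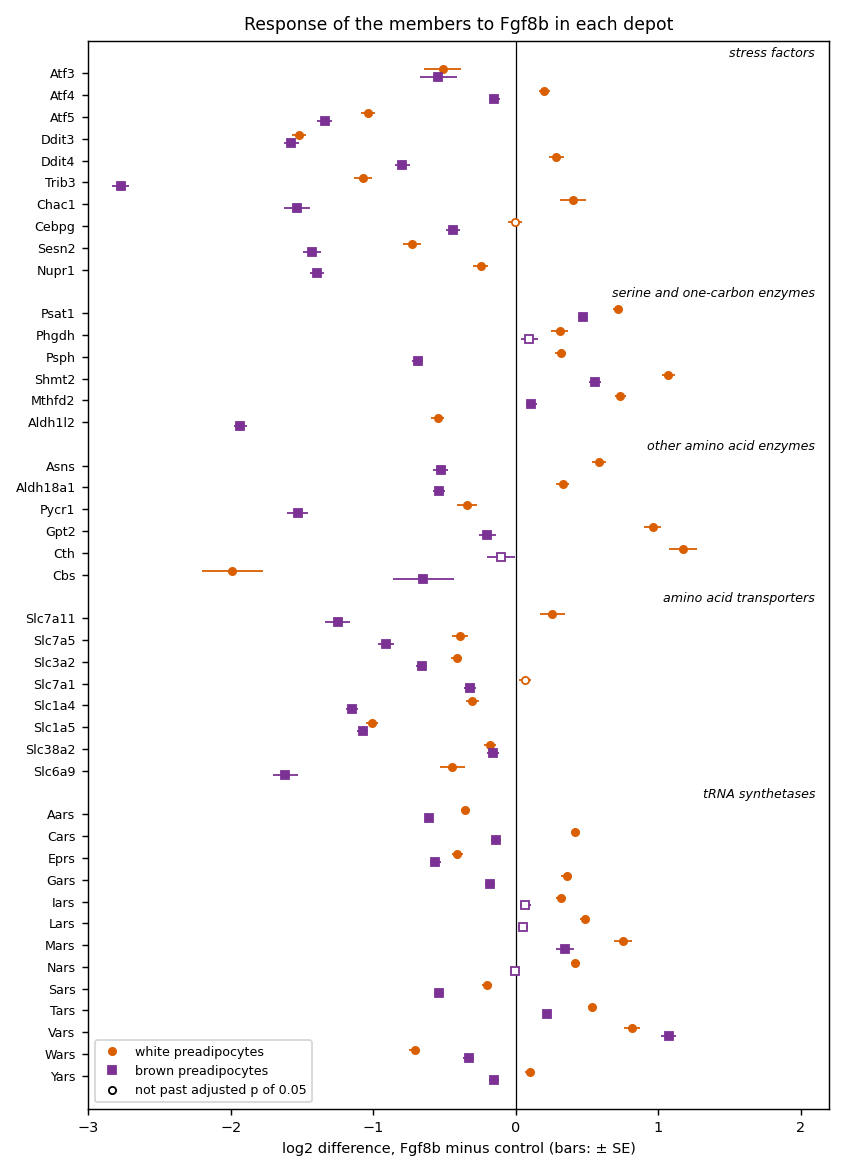
Log2 difference of Fgf8b minus control for each member in white (circles) and brown (squares) preadipocytes, with bars of 1 SE and open symbols for values past no threshold. The brown value lies to the left of the white one for most members. Cbs, Vars and Wars lie the other way, as does Slc38a2 by 0.024, which was not called.

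The stress factors had the most negative median of the 5 classes in either depot. All 10 fell in brown preadipocytes with a median log2 difference of -1.37, and in white preadipocytes 6 fell and 3 rose with a median of -0.38. Atf4 encodes the central transcription factor of the response. Its level was 312.2, 299.8, 293.7 and 286.8 RPKM in white Fgf8b libraries, against 254.3, 264.8, 259.5 and 258.4 in white controls, and 235.8, 216.2, 214.8 and 215.7 RPKM in brown Fgf8b libraries, against 250.1, 245.3, 250.3 and 236.4 in brown controls. The treatments of each depot do not overlap (in brown preadipocytes the highest Fgf8b library lies just below the lowest control), and the direction is opposite: Atf4 rose 1.15-fold in white (log2 difference 0.20 ± 0.038 SE, adjusted p = 0.000137) and fell 1.11-fold in brown preadipocytes (log2 difference -0.15 ± 0.038 SE, adjusted p = 0.00175). The difference of the 2 responses was -0.35 ± 0.054 log2 (SE, adjusted p = 5.94e-05).

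Trib3 encodes a pseudokinase that is induced by ATF4 and inhibits AKT. It had 31.2, 26.9, 25.3 and 25.6 RPKM in white Fgf8b libraries, against 57.7, 58.5, 57.2 and 58.1 in white controls. In brown cells it had 6.7, 6.28, 6.48 and 6.17 RPKM with Fgf8b, against 43, 44.4, 44.9 and 42.6 in controls. Every Fgf8b library lay below every control library of its depot, and the brown Fgf8b libraries were the lowest of all. Trib3 fell 2.1-fold in white (log2 difference -1.07 ± 0.062 SE, adjusted p = 1.76e-11) and 6.83-fold in brown preadipocytes (log2 difference -2.77 ± 0.062 SE, adjusted p = 9.78e-18), the largest response of any member, and the difference between depots was -1.70 ± 0.087 log2 (SE, adjusted p = 1.21e-10).

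Chac1 encodes an enzyme that degrades glutathione. Its level was 20.3, 17.6, 17.2 and 18.5 RPKM in white Fgf8b libraries, against 12.6, 14.1, 14.8 and 14.1 in white controls, and 6.05, 4.86, 5.33 and 6.07 RPKM in brown Fgf8b libraries, against 16.2, 18.4, 18.2 and 13.5 in brown controls. The white Fgf8b libraries were all above their controls and the brown Fgf8b libraries all below theirs. Chac1 rose 1.32-fold in white (log2 difference 0.40 ± 0.093 SE, adjusted p = 0.000908) and fell 2.9-fold in brown preadipocytes (log2 difference -1.54 ± 0.093 SE, adjusted p = 2.78e-11), and its difference of responses of -1.94 ± 0.13 log2 (SE, adjusted p = 3.41e-09) was the most negative of the 43. Ddit4 encodes REDD1, an inhibitor of mTORC1. Its levels were 61.5, 60.6, 62.5 and 58.9 RPKM in white Fgf8b libraries against 46.6, 49.2, 52.3 and 50.2 in white controls, and 29.5, 30.8, 29.6 and 26.8 RPKM in brown Fgf8b libraries against 54.6, 50.9, 49.5 and 47.1 in brown controls. Ddit4 too went in opposite directions, 0.28 in white and -0.80 in brown preadipocytes on the log2 scale, with a difference of -1.08 ± 0.075 log2 (SE, adjusted p = 4.79e-09).

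Ddit3 encodes CHOP, a C/EBP-family factor linked to cell death under lasting stress, and it fell in both depots. It had 59.5, 54.4, 52.6 and 49.1 RPKM in white Fgf8b libraries, against 153, 151, 153 and 159.5 in white controls, and 48.1, 46.7, 41.4 and 43.1 RPKM in brown Fgf8b libraries, against 131, 137, 133 and 132 in brown controls. The groups of each depot were far apart, with a 2.87-fold fall in white (log2 difference -1.52 ± 0.051 SE, adjusted p = 4.98e-15) and a 2.98-fold fall in brown preadipocytes (log2 difference -1.57 ± 0.051 SE, adjusted p = 2.21e-15). Its difference of responses was not called (log2 difference -0.054 ± 0.072 SE, adjusted p = 0.602), which does not show that the 2 responses were equal.

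Nupr1, a small stress-induced chromatin protein, had 121, 108, 97.9 and 104 RPKM in white Fgf8b libraries against 127, 128, 128 and 128 in white controls. In brown cells it had 46.6, 42.2, 42.4 and 43.9 RPKM with Fgf8b against 115, 113, 118 and 119 in controls. It fell in both depots, by 0.25 log2 in white and 1.40 log2 in brown preadipocytes, with no overlap between treatments, and the difference was -1.15 ± 0.071 log2 (SE, adjusted p = 1.14e-09). Sesn2, a leucine-binding inhibitor of mTORC1, averaged 15.5 ± 1.22 RPKM in white Fgf8b libraries and 25.5 ± 1.4 in white controls, and 9.78 ± 0.972 RPKM in brown Fgf8b libraries and 26 ± 1.77 in brown controls (SD, n = 4 each). It fell by 0.73 log2 in white and by 1.43 log2 in brown preadipocytes (difference of responses, log2 -0.70 ± 0.09 SE, adjusted p = 8.63e-06).

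The other leucine zipper factors were Atf5, Atf3 and Cebpg. Atf5, a relative of Atf4, averaged 167 ± 11.9 RPKM in white Fgf8b libraries and 342 ± 4.72 in white controls, and 117 ± 2.85 RPKM in brown Fgf8b libraries and 298 ± 24 in brown controls (SD, n = 4 each). It fell by 1.04 log2 in white and 1.34 log2 in brown preadipocytes. Cebpg encodes a C/EBP protein that dimerises with ATF4. Its log2 difference was -0.0078 in white, which was not called (adjusted p = 0.901), and -0.44 in brown preadipocytes (adjusted p = 2.36e-07). Atf3, an early stress factor, was low, with 1.22, 1.14, 1.01 and 0.814 RPKM in white Fgf8b libraries against 1.49, 1.53, 1.8 and 1.56 in white controls, and 1.58, 1.51, 1.63 and 1.69 RPKM in brown Fgf8b libraries against 2.17, 2.34, 2.16 and 2.9 in brown controls. These levels rest on 26 to 92 reads per library, and Atf3 fell by 0.51 log2 in white and 0.54 log2 in brown preadipocytes.

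**Figure D3:**
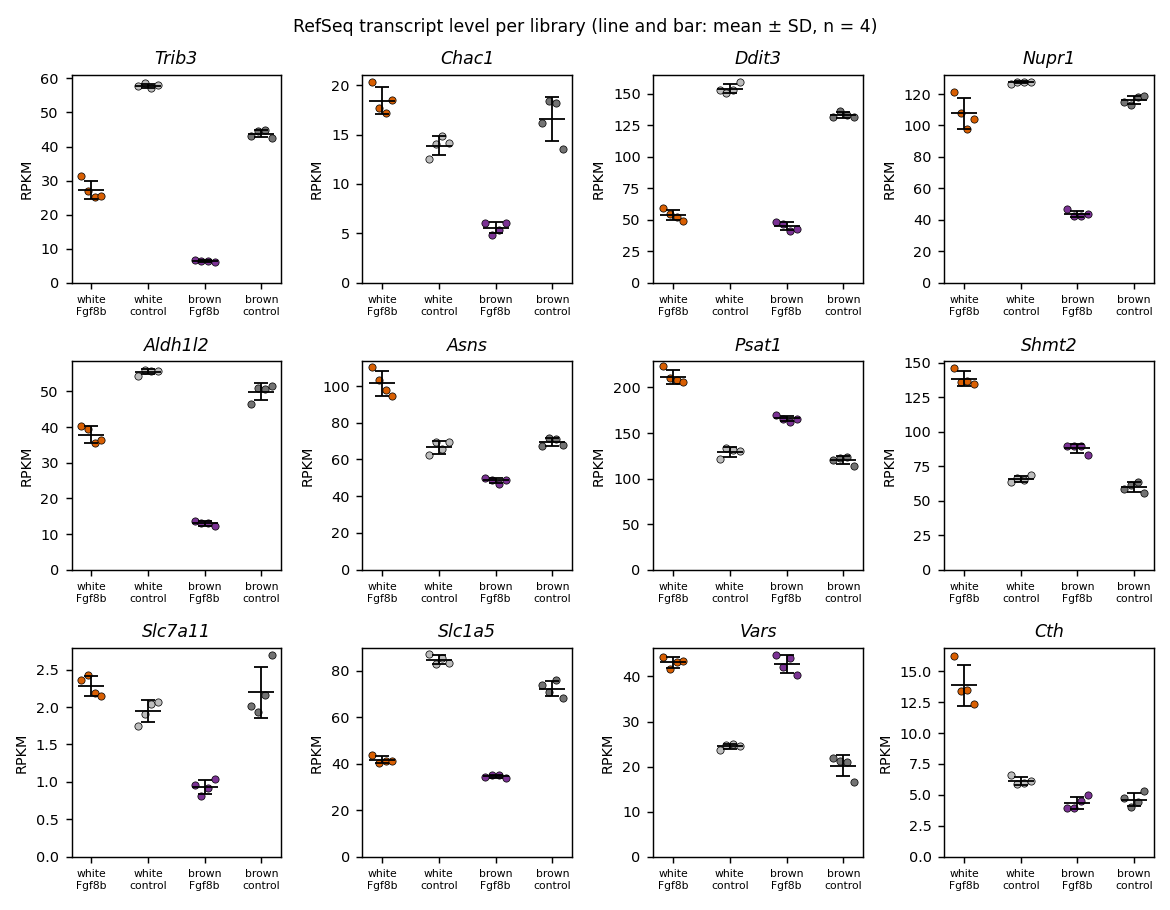
RPKM of 12 members in each library (points), by group, with a line at the mean and bars of 1 SD (n = 4 libraries per group) and axes that start at 0. Trib3, Aldh1l2 and Nupr1 are lowest in the brown Fgf8b libraries, Asns and Cth are highest in the white Fgf8b libraries, and Vars is high in both Fgf8b groups.

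The serine and one-carbon enzymes mostly rose in white preadipocytes. There 5 of 6 rose and 1 fell (median log2 difference 0.51), and in brown preadipocytes 3 rose and 2 fell (0.10). Phgdh, Psat1 and Psph encode the 3 steps from a glycolytic intermediate to serine. Psat1 had 223, 210.4, 208 and 206 RPKM in white Fgf8b libraries against 122, 134, 131 and 130.1 in white controls, and 170.0, 166, 162 and 166 RPKM in brown Fgf8b libraries against 121, 123, 123 and 113 in brown controls. All Fgf8b libraries lay above their controls, a rise of 1.64-fold in white (log2 difference 0.71 ± 0.034 SE, adjusted p = 1.21e-12) and 1.38-fold in brown preadipocytes (log2 difference 0.47 ± 0.034 SE, adjusted p = 4.72e-10).

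Psph, which releases serine in the last step, went in opposite directions. It had 40, 36, 36.5 and 34.6 RPKM in white Fgf8b libraries against 30, 29.1, 30.5 and 29.6 in white controls, and 20.7, 21.6, 20.9 and 20 RPKM in brown Fgf8b libraries against 33.8, 34.2, 32.5 and 34.4 in brown controls. The treatments did not overlap in either depot, with 0.31 in white and -0.69 in brown preadipocytes on the log2 scale and a difference of -1.0 ± 0.057 log2 (SE, adjusted p = 4.24e-10). Phgdh, the first enzyme, rose by 0.31 log2 in white preadipocytes and was not called in brown (log2 difference 0.095 ± 0.059 SE, adjusted p = 0.162). Its difference of responses was not called either (log2 difference -0.21 ± 0.084 SE, adjusted p = 0.055), but was called without brown control library 15 (-0.27, adjusted p = 0.0073), white control library 3 (-0.27, adjusted p = 0.0144) or brown Fgf8b library 16 (-0.24, adjusted p = 0.0471), and with upper-quartile factors (-0.24, adjusted p = 0.0276). Phgdh shares 74.1% of the 31-base words of its transcript with other transcripts, mostly of Gm7901, so its values are uncertain. Of the other members, Psph shares 24.8% with other transcripts, Aars 22.7%, Iars 17.7% and Aldh1l2 17.1%.

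In mitochondria SHMT2 splits serine into glycine and a one-carbon unit, MTHFD2 oxidises that unit, and ALDH1L2 releases it as CO2. Shmt2 had 146, 136, 137 and 134 RPKM in white Fgf8b libraries against 63.4, 66.3, 65.3 and 68.3 in white controls, and 89.4, 89.6, 89.8 and 83.1 RPKM in brown Fgf8b libraries against 58.6, 61.5, 63.8 and 55.4 in brown controls. Its Fgf8b libraries were above the controls throughout, and Shmt2 rose 2.1-fold in white (log2 difference 1.07 ± 0.043 SE, adjusted p = 9.46e-14) and 1.47-fold in brown preadipocytes (log2 difference 0.56 ± 0.043 SE, adjusted p = 1.17e-09). Mthfd2 averaged 83.4 ± 4.06 RPKM in white Fgf8b libraries and 50.1 ± 1.18 in white controls, and 58 ± 0.625 RPKM in brown Fgf8b libraries and 53.9 ± 1.76 in brown controls (SD, n = 4 each). The rise of 0.73 log2 in white was beyond that spread. The brown treatments did not overlap either, at 57.1 to 58.5 RPKM with Fgf8b against 52.0 to 56.2 in controls. The brown value of 0.11 (adjusted p = 0.0141) was not called with median-of-ratios factors (0.079, adjusted p = 0.0632) or with upper-quartile factors (0.018, adjusted p = 0.683).

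Aldh1l2 fell in both depots. Its level was 40.4, 39.4, 35.5 and 36.3 RPKM in white Fgf8b libraries against 54.5, 56, 55.9 and 55.7 in white controls, and 13.7, 13, 13.1 and 12.2 RPKM in brown Fgf8b libraries against 46.6, 51, 50.6 and 51.6 in brown controls. The brown Fgf8b libraries were the lowest by a wide margin, with a fall of 3.82-fold (log2 difference -1.93 ± 0.047 SE, adjusted p = 3.32e-17) against 1.46-fold in white preadipocytes (log2 difference -0.55 ± 0.047 SE, adjusted p = 5.27e-09) and a difference of -1.38 ± 0.066 log2 (SE, adjusted p = 5.04e-11). In brown cells with Fgf8b, Psat1 and Shmt2 were higher and Psph and Aldh1l2 lower than in brown controls.

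Of the 6 other amino acid enzymes, 4 rose and 2 fell in white preadipocytes (median 0.46), and 0 rose and 5 fell in brown (median -0.53). Asns makes asparagine from aspartate. It had 110.2, 103, 97.6 and 94.5 RPKM in white Fgf8b libraries against 62.4, 69.6, 65.5 and 69.6 in white controls, and 49.8, 49, 46.6 and 49 RPKM in brown Fgf8b libraries against 67.3, 71.4, 71.4 and 67.9 in brown controls. The treatments did not overlap in either depot and the directions were opposite, 1.5-fold higher in white (log2 difference 0.58 ± 0.05 SE, adjusted p = 5.88e-09) and 1.44-fold lower in brown preadipocytes (log2 difference -0.53 ± 0.05 SE, adjusted p = 1.97e-08). The difference of responses was -1.11 ± 0.071 log2 (SE, adjusted p = 1.66e-09).

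Gpt2, a mitochondrial alanine aminotransferase, averaged 23.2 ± 1.24 RPKM in white Fgf8b libraries and 11.9 ± 0.364 in white controls, and 7.87 ± 0.184 RPKM in brown Fgf8b libraries and 9.34 ± 0.657 in brown controls (SD, n = 4 each). It rose 1.95-fold in white and fell 1.15-fold in brown preadipocytes (difference of responses, log2 -1.16 ± 0.084 SE, adjusted p = 8.49e-09). Aldh18a1, which opens the route from glutamate to proline, rose by 0.33 log2 in white and fell by 0.54 log2 in brown preadipocytes (difference of responses, log2 -0.87 ± 0.063 SE, adjusted p = 8.2e-09). Pycr1, the last step of proline synthesis, fell in both, by 0.34 log2 in white and 1.53 log2 in brown preadipocytes, where its level was 2.72 ± 0.476 RPKM with Fgf8b and 7.44 ± 0.272 RPKM in controls.

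Cbs and Cth encode the 2 steps from homocysteine to cysteine. Cth had 16.3, 13.4, 13.5 and 12.3 RPKM in white Fgf8b libraries against 6.64, 5.84, 5.93 and 6.1 in white controls, and 3.92, 3.91, 4.53 and 4.99 RPKM in brown Fgf8b libraries against 4.73, 4.01, 4.39 and 5.29 in brown controls. The white Fgf8b libraries were all above every other library, while the brown treatments overlapped. Cth rose 2.26-fold in white (log2 difference 1.17 ± 0.099 SE, adjusted p = 4.52e-09) and was not called in brown preadipocytes (log2 difference -0.10 ± 0.099 SE, adjusted p = 0.353), and the difference was -1.28 ± 0.14 log2 (SE, adjusted p = 1.31e-06).

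Cbs was near the limit of detection, with 0.146, 0.0886, 0.063 and 0.105 RPKM in white Fgf8b libraries against 0.54, 0.513, 0.456 and 0.63 in white controls, and 0.37, 0.533, 0.463 and 0.633 RPKM in brown Fgf8b libraries against 0.984, 0.83, 0.848 and 0.526 in brown controls. Its transcript drew 3 to 6 reads per white Fgf8b library against 20 to 27 in white controls, and 14 to 22 in brown Fgf8b libraries against 20 to 32 in brown controls. It was low in all white Fgf8b libraries, and the brown treatments overlapped. Cbs had a difference of -1.99 ± 0.22 log2 (SE, adjusted p = 1.58e-07) in white and of -0.65 ± 0.22 log2 (SE, adjusted p = 0.0121) in brown preadipocytes, and 1 transcript alone gave -0.78 in white and -0.37 in brown. The brown value was not called without Fgf8b library 10 (-0.51, adjusted p = 0.0505), and the positive difference of responses of 1.34 (adjusted p = 0.00217) was 0.41 with 1 transcript alone.

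The transporters mostly fell. In brown preadipocytes 8 of 8 fell with a median log2 difference of -0.99, and in white preadipocytes 6 fell and 1 rose with a median of -0.35. Slc7a11 encodes the light chain of the cystine importer that feeds glutathione synthesis. Its levels were 2.36, 2.43, 2.19 and 2.15 RPKM in white Fgf8b libraries against 1.75, 1.91, 2.05 and 2.07 in white controls, and 0.962, 0.813, 0.921 and 1.03 RPKM in brown Fgf8b libraries against 2.01, 1.94, 2.15 and 2.69 in brown controls. The white groups nearly touched, and the brown Fgf8b libraries lay below all others. Slc7a11 fell 2.38-fold in brown preadipocytes (log2 difference -1.25 ± 0.089 SE, adjusted p = 3.01e-10), with a difference of responses of -1.51 ± 0.13 log2 (SE, adjusted p = 5.17e-08). The white rise of 0.26 (adjusted p = 0.0166) was not called with upper-quartile factors (0.20, adjusted p = 0.0635), with 1 transcript per gene (0.19, adjusted p = 0.0608), without white Fgf8b library 2 (0.19, adjusted p = 0.0720) or without white control library 1 (0.23, adjusted p = 0.0502).

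Slc7a5 and Slc3a2 encode the light and heavy chains of the exchanger that brings in leucine and other large neutral amino acids. Slc7a5 averaged 59.7 ± 1.96 RPKM in white Fgf8b libraries and 78.5 ± 3.05 in white controls, and 38.5 ± 0.943 RPKM in brown Fgf8b libraries and 73.1 ± 6.13 in brown controls (SD, n = 4 each). It fell by 0.39 log2 in white and 0.91 log2 in brown preadipocytes, and Slc3a2 by 0.41 in white and 0.66 in brown. Both differences of responses were called, -0.52 for Slc7a5 and -0.25 for Slc3a2.

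Slc1a5, a glutamine and neutral amino acid exchanger, had 43.8, 40.4, 40.9 and 41.1 RPKM in white Fgf8b libraries against 86.9, 82.8, 85.5 and 83.1 in white controls, and 34.3, 35.1, 35 and 33.7 RPKM in brown Fgf8b libraries against 73.6, 70.7, 75.9 and 68.4 in brown controls. All Fgf8b libraries were lower, 2.01-fold in white (log2 difference -1.01 ± 0.04 SE, adjusted p = 5.41e-14) and 2.11-fold in brown preadipocytes (log2 difference -1.08 ± 0.04 SE, adjusted p = 1.64e-14), and the difference of responses was not called (log2 difference -0.065 ± 0.056 SE, adjusted p = 0.396). Its relative Slc1a4, which carries serine and alanine, fell by 0.30 log2 in white and 1.15 log2 in brown preadipocytes (difference of responses, log2 -0.85 ± 0.061 SE, adjusted p = 8.45e-09).

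Slc6a9, the glycine transporter GlyT1, had 13, 13.3, 12.5 and 11.8 RPKM in white Fgf8b libraries against 16.7, 16.6, 17.1 and 17.3 in white controls, and 5.6, 4.58, 5.76 and 4.58 RPKM in brown Fgf8b libraries against 17.1, 16.7, 15.7 and 13.5 in brown controls. It fell in both without overlap, 1.36-fold in white and 3.07-fold in brown preadipocytes (difference of responses, log2 -1.17 ± 0.12 SE, adjusted p = 9.47e-07), and it shares 42.6% of its 31-base words with other transcripts, mostly of Ccdc24. Slc7a1, an importer of arginine and lysine, was not called in white (log2 difference 0.066 ± 0.042 SE, adjusted p = 0.18) and fell in brown preadipocytes (log2 difference -0.32 ± 0.042 SE, adjusted p = 1.47e-06). Slc38a2, a sodium-coupled importer of small neutral amino acids, moved least among the transporters that fell in both, with -0.18 in white and -0.16 in brown preadipocytes, and its brown treatments overlapped.

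The tRNA synthetases, which load each tRNA with its amino acid, mostly rose in white preadipocytes, with 9 of 13 higher and 4 lower (median 0.36). In brown preadipocytes 3 were higher and 7 lower (median -0.14). Vars, for valine, had 44.4, 41.6, 43.2 and 43.4 RPKM in white Fgf8b libraries against 23.8, 24.8, 25 and 24.6 in white controls, and 44.8, 42, 44.2 and 40.4 RPKM in brown Fgf8b libraries against 21.8, 21.3, 21 and 16.7 in brown controls. Both Fgf8b groups were well above their controls, 1.76-fold in white (log2 difference 0.81 ± 0.055 SE, adjusted p = 1.93e-10) and 2.1-fold in brown preadipocytes (log2 difference 1.07 ± 0.055 SE, adjusted p = 2.48e-12), and the difference of responses was 0.26 ± 0.078 log2 (SE, adjusted p = 0.0148). Mars and Tars, for methionine and threonine, also rose in both depots, Mars by 0.75 log2 in white and 0.35 log2 in brown preadipocytes and Tars by 0.54 in white and 0.22 in brown.

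Gars, Cars and Yars, for glycine, cysteine and tyrosine, rose in white and fell in brown preadipocytes. Gars had 145, 146, 137 and 133 RPKM in white Fgf8b libraries against 106, 113, 107 and 111 in white controls, and 99.3, 99.5, 93.8 and 96.1 RPKM in brown Fgf8b libraries against 108, 107, 109 and 115 in brown controls. Its treatments did not overlap in either depot, with 0.36 ± 0.038 log2 (SE, adjusted p = 1.15e-07) in white and -0.18 ± 0.038 log2 (SE, adjusted p = 0.000332) in brown preadipocytes and a difference of -0.54 ± 0.054 log2 (SE, adjusted p = 4.44e-07). Cars had a log2 difference of 0.42 in white and -0.14 in brown preadipocytes, where its treatments overlapped. The white value of Yars, 0.10 (adjusted p = 0.0238), was not called with median-of-ratios factors (0.052, adjusted p = 0.233) or upper-quartile factors (0.039, adjusted p = 0.391), nor without white Fgf8b library 2 or 4 or white control library 1 or 7 (0.076 to 0.093, adjusted p = 0.0584 to 0.0917), and its brown value was -0.15 ± 0.037 log2 (SE, adjusted p = 0.00114).

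Iars, Lars and Nars, for isoleucine, leucine and asparagine, rose by 0.32, 0.48 and 0.42 in white preadipocytes and were not called in brown, at 0.068, 0.05 and -0.008. The brown values of Iars and Lars turned to -0.022 and -0.040 with upper-quartile factors. Lars was called in brown without Fgf8b library 14 (0.078, adjusted p = 0.0471) and Iars without Fgf8b library 16 (0.096, adjusted p = 0.0299), and Nars was called with upper-quartile factors (-0.098, adjusted p = 0.0090).

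Aars, Eprs, Sars and Wars, for alanine, glutamate with proline, serine and tryptophan, fell in both depots. Aars had 82, 81.3, 77.6 and 78.6 RPKM in white Fgf8b libraries against 101, 102, 100.1 and 104 in white controls, and 67.8, 68.4, 68.4 and 63.9 RPKM in brown Fgf8b libraries against 103, 106, 105 and 99.9 in brown controls. The treatments of each depot did not overlap, with -0.35 ± 0.03 log2 (SE, adjusted p = 5.92e-09) in white and -0.61 ± 0.03 log2 (SE, adjusted p = 1.54e-12) in brown preadipocytes. Eprs fell by 0.41 log2 in white and 0.56 log2 in brown preadipocytes, and Sars by 0.20 in white and 0.54 in brown. The difference of responses of Eprs, -0.15 (adjusted p = 0.0259), was not called with median-of-ratios factors (-0.14, adjusted p = 0.0546), without trend and robust moderation (adjusted p = 0.0530), or without white Fgf8b library 4, white control library 1 or 5 or brown Fgf8b library 16 (adjusted p = 0.0507 to 0.0588). Wars averaged 31.4 ± 0.934 RPKM in white Fgf8b libraries and 51.5 ± 1.69 in white controls, and 34.2 ± 0.863 RPKM in brown Fgf8b libraries and 43.4 ± 2.75 in brown controls (SD, n = 4 each). Wars fell more in white (log2 difference -0.71 ± 0.038 SE, adjusted p = 5.08e-12) than in brown preadipocytes (log2 difference -0.33 ± 0.038 SE, adjusted p = 2.31e-07), with a difference of 0.38 ± 0.053 log2 (SE, adjusted p = 2.25e-05).

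Between the 2 depots, fewer members were called in controls than with Fgf8b. Brown against white controls, 3 members were higher and 13 lower, where 33.9% of all genes were called, 18.1% higher and 15.9% lower. Of the 43 members 0 were called and at least 2-fold, where 3.36% of all genes tested were. Whether 0 of 43 is unusual at that share was not tested. The 3 higher were Atf3 (log2 difference 0.55 ± 0.13 SE, adjusted p = 0.00276), Psph (log2 difference 0.16 ± 0.041 SE, adjusted p = 0.00537) and Mthfd2 (log2 difference 0.10 ± 0.037 SE, adjusted p = 0.0492). Taking only RefSeq entries or 1 transcript per gene gave 5 higher, as Chac1 and Cbs gained the call. Chac1 was at 0.24 log2 there (adjusted p = 0.0368 and 0.0418) and at 0.24 with all entries summed (adjusted p = 0.0519). The Mthfd2 call was lost under most of the 27 alternatives. The most negative were Cth (log2 difference -0.42 ± 0.099 SE, adjusted p = 0.00265), Trib3 (log2 difference -0.40 ± 0.062 SE, adjusted p = 4.67e-05) and Gpt2 (log2 difference -0.37 ± 0.06 SE, adjusted p = 8.7e-05).

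Brown against white preadipocytes with Fgf8b, 3 members were higher and 38 lower, where 51.6% of all genes were called, 26.9% higher and 24.7% lower. The median over the members was -0.50, beside 0.0055 over all genes, and 11 members were at least 2-fold lower and 1 at least 2-fold higher, where 4.31% of all genes were called and at least 2-fold. Trib3 at 4.3-fold lower (log2 difference -2.10 ± 0.062 SE, adjusted p = 1.02e-14), Cth at 3.25-fold (log2 difference -1.70 ± 0.099 SE, adjusted p = 9.77e-11) and Chac1 at 3.24-fold (log2 difference -1.69 ± 0.093 SE, adjusted p = 4.41e-11) led them, and all 6 serine and one-carbon enzymes were lower. The 3 higher were Cbs (log2 difference 1.80 ± 0.22 SE, adjusted p = 1.44e-06), Atf3 (log2 difference 0.51 ± 0.13 SE, adjusted p = 0.00259) and Wars (log2 difference 0.14 ± 0.038 SE, adjusted p = 0.00516), and Vars and Slc38a2 were not called. Cbs is the member at least 2-fold higher. With 1 transcript alone its value was 0.73, shrunk by the 0.5 added and resting on 3 to 6 reads per white Fgf8b library. This comparison and the Fgf8b responses share libraries, so their values stand side by side and none supports another.

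Other genes of the pathways moved unevenly around the members. Their lists, like the members, were chosen with earlier results of these data known. Their counts beside the shares over all genes are therefore descriptions and not independent support. Of 20 other reported ATF4 targets, 5 rose and 11 fell in white preadipocytes (median -0.18), and 3 rose and 13 fell in brown (median -0.67). Over all genes tested 36.3% rose and 29.5% fell in white, and 36.7% rose and 34.7% fell in brown preadipocytes, the shares against which this and the following counts stand. Gdf15, a stress cytokine, fell most in both, by 1.67 log2 in white and 2.27 log2 in brown preadipocytes. The difference of responses was -1.59 ± 0.083 log2 (SE, adjusted p = 1.5e-10) for Vldlr, a lipoprotein receptor, and -1.46 ± 0.071 log2 (SE, adjusted p = 6.41e-11) for Pck2, the mitochondrial PEP carboxykinase. In the difference of responses 0 of the 20 were positive and 12 negative, where 17.1% of all genes were called positive and 17.8% negative. The tRNA synthetases and complex proteins outside the members moved one way: 10 of 10 rose in both depots, with medians of 0.50 in white and 0.69 in brown preadipocytes, and 10 of 10 rose also with median-of-ratios and upper-quartile factors. Eef1e1, a scaffold protein of the synthetase complex, rose by 0.97 in white and 1.31 in brown preadipocytes, and Rars, for arginine, by 0.83 in white and 0.73 in brown. Of 17 mitochondrial synthetases, 6 rose and 2 fell in white (1 with 1 transcript per gene), and 10 rose and 1 fell in brown preadipocytes, so the share that rose in white was near that of all genes.

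Of 19 listed genes of the unfolded protein response of the endoplasmic reticulum, 13 rose and 3 fell in white (median 0.33), and 14 rose and 3 fell in brown preadipocytes (median 0.32). Creld2, a secreted chaperone-like protein of that response, averaged 45.7 ± 1.76 RPKM in white Fgf8b libraries and 26.7 ± 1.75 in white controls, and 56.5 ± 2.06 RPKM in brown Fgf8b libraries and 34.4 ± 2.45 in brown controls (SD, n = 4 each). Hyou1, an endoplasmic reticulum chaperone, rose by 0.78 log2 in brown, whereas Herpud1, which serves protein degradation there and is also among the listed ATF4 targets, fell by 1.21 log2 in brown preadipocytes. Of 15 genes for eIF2 kinases, phosphatase regulators, eIF2 and eIF2B, 9 rose and 3 fell in white, and 10 rose and 3 fell in brown preadipocytes. Eif2b3, a subunit of the exchange factor eIF2B, rose by 0.98 log2 in white and 0.91 log2 in brown preadipocytes. Impact, an inhibitor of the eIF2 kinase GCN2, fell by 1.32 log2 in white and 0.82 log2 in brown preadipocytes.

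**Figure D4:**
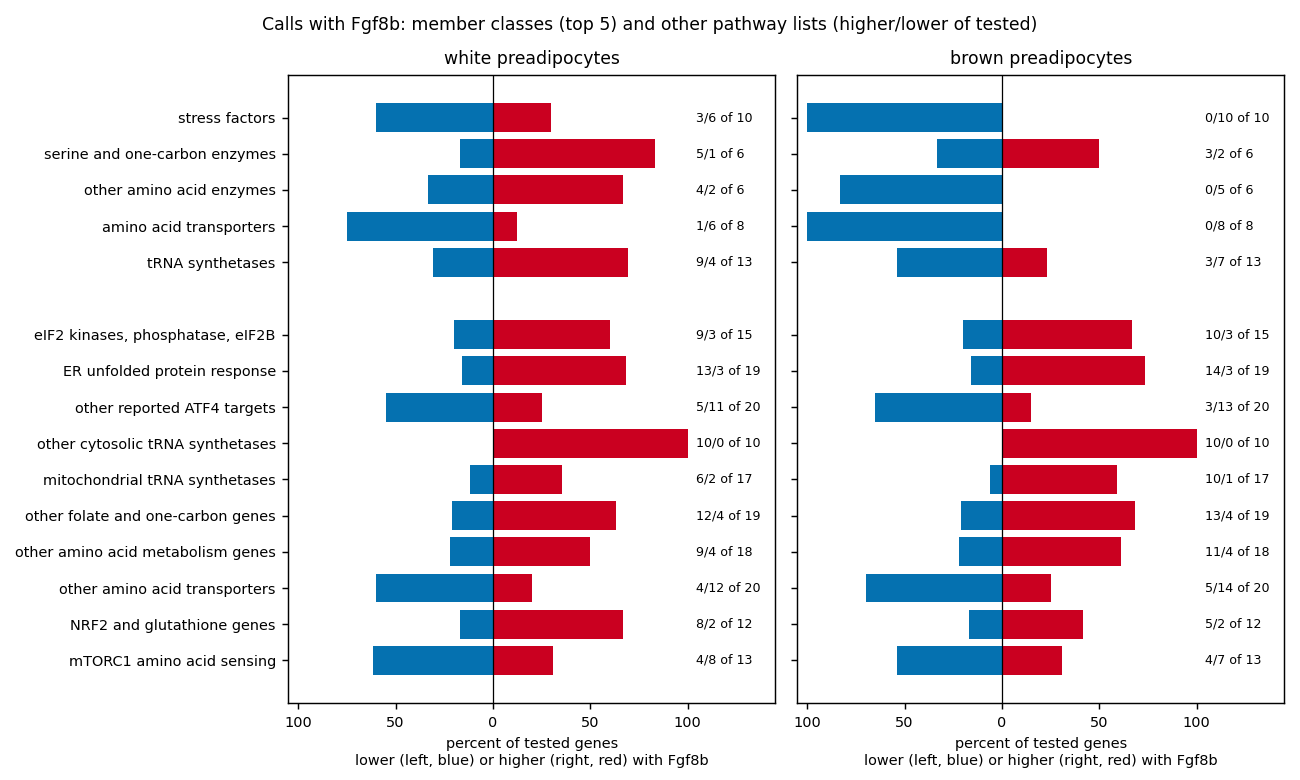
Percent of tested genes called higher (right, red) or lower (left, blue) with Fgf8b in white and brown preadipocytes, for the 5 classes of members and 10 other lists of the same pathways, with the counts printed as higher/lower of tested. Stress factors and transporters extend fully to the left in brown preadipocytes, and the other cytosolic tRNA synthetases extend fully to the right in both.

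Among 19 other folate and one-carbon genes, 12 rose and 4 fell in white, and 13 rose and 4 fell in brown preadipocytes (medians of 0.36 in white and 0.50 in brown). Shmt1, the cytosolic counterpart of Shmt2, rose by 1.24 log2 in brown, and its difference of responses was 0.84 ± 0.065 log2 (SE, adjusted p = 2.01e-08), opposite in sign to that of Shmt2. Gldc, of glycine cleavage, fell by 1.55 log2 in white and 2.5 log2 in brown preadipocytes. Of 18 other amino acid metabolism genes, 9 rose and 4 fell in white, and 11 rose and 4 fell in brown preadipocytes, with Glul, glutamine synthetase, up by 0.81 log2 in white and 1.10 log2 in brown. Of 20 other transporters, 4 rose and 12 fell in white, and 5 rose and 14 fell in brown preadipocytes, where upper-quartile factors gave 3 higher. Slc1a3, a glutamate importer, fell by 3.21 log2 in white and 3.64 log2 in brown preadipocytes, and Slc7a2, an arginine importer, by 2.03 in white and 2.13 in brown. Slc7a3, a further arginine importer, had a difference of responses of -2.18 ± 0.16 log2 (SE, adjusted p = 1.57e-08).

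Of 12 NRF2 and glutathione genes, 8 rose and 2 fell in white, and 5 rose and 2 fell in brown preadipocytes, where upper-quartile factors gave 4 lower. Txnrd1, thioredoxin reductase, rose by 0.73 log2 in white and 0.99 log2 in brown preadipocytes, while the NRF2-responsive member Slc7a11 fell in brown preadipocytes. Of 13 genes of amino acid sensing by mTORC1, 4 rose and 8 fell in white, and 4 rose and 7 fell in brown preadipocytes. Deptor, an mTOR inhibitor, fell by 1.66 log2 in white and 1.12 log2 in brown preadipocytes, and Sesn1, a relative of Sesn2, by 0.97 in white and 1.42 in brown.

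Markers of other cell types were low and moved with treatment or depot, and their part in these results was not tested. Summed leukocyte markers were 1.79 to 2.28 RPKM in white Fgf8b libraries against 2.34 to 3.08 in white controls, and 1.62 to 2.10 RPKM in brown Fgf8b libraries against 3.17 to 5.47 in brown controls, with Cd3e at 0 in every library and Ptprc at most 0.013 RPKM. They did not move one way: of the 3 tested, 1 rose and 2 fell in white, and likewise in brown preadipocytes. In each group 1 of the 6 leukocyte markers averaged at least 1 RPKM. Summed endothelial markers were 2.39 to 2.91 RPKM in white Fgf8b libraries against 11 to 11.7 in white controls, and 1.45 to 1.73 RPKM in brown Fgf8b libraries against 7.33 to 8.58 in brown controls, with Pecam1 at most 0.224 RPKM. Of the 4 endothelial markers tested, 1 rose and 2 fell in white, and likewise in brown preadipocytes. Schwann cell markers summed to 1.69 to 2.50 RPKM in white Fgf8b libraries against 5.78 to 7.04 in white controls, and 2.78 to 3.89 RPKM in brown Fgf8b libraries against 10.4 to 13.4 in brown controls. Of the 4 Schwann cell markers tested, 0 rose and 2 fell in white, and 0 rose and 4 fell in brown preadipocytes. All 4 were higher in brown than in white controls. Skeletal muscle markers summed to 1.64 to 2.42 RPKM in white Fgf8b libraries against 4.76 to 6.93 in white controls, and 2.10 to 2.64 RPKM in brown Fgf8b libraries against 7.82 to 10.1 in brown controls, with Myod1 at 0 in every library. Only 1 of the 5 muscle markers passed the filter for testing. Epithelial markers went the other way, with 1.19 to 1.42 RPKM in white Fgf8b libraries against 0.152 to 0.267 in white controls, and 0.545 to 0.667 RPKM in brown Fgf8b libraries against 0.0731 to 0.216 in brown controls, and the 2 of 4 that were tested rose in both depots.

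The responses of members with and without the promoter element are given side by side, with no test. Of the 13 members with a match, 6 fell in white and 11 in brown preadipocytes, with median log2 differences of 0.10 in white and -0.61 in brown. Of the 21 with a promoter and no counted match, 9 fell in white and 16 in brown preadipocytes. Their medians were 0.066 in white and -0.54 in brown. Any member on the chromosome filtered out of the member matches stands among the 21. Trib3, Asns and Gars, which all hold the core, had -1.07, 0.58 and 0.36 in white and -2.77, -0.53 and -0.18 in brown preadipocytes. Iars and Tars, which also hold it, had 0.068 and 0.22 in brown preadipocytes. These are descriptions of letters and values, and no binding was measured. Within genes, 293 of 295 entries of at least 1 RPKM in the 41 members called in white went with the sum. The exceptions were 1 entry each of Slc6a9 and Aars. In the 38 members called in brown preadipocytes 280 of 280 did. Cbs, among the called members, had 0 such entries. Each entry is part of the sum it is set against, and entries of a gene can share reads, so this agreement is not independent support.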

How the data were processed

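RNA of 16 libraries in 4 groups of 4 was sequenced. Per the labels' protocols, total RNA was extracted with TRIsure, column-purified and made into libraries with a TruSeq RNA kit (v2), which does not mark strand, so reads of overlapping antisense genes cannot be told apart. Per the submitters' processing notes, CASAVA and bcl2fastq were used. The sources used here do not name an aligner, genome build or annotation. The authors deposited a table with 1 row per transcript accession and decimal commas, whose unit, RPKM, was read from the values. It has 168326 entries, 0 values below 0 and 0 that are not numeric.

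Entries with no gene symbol (13.8%) and 808 entries of repeated accessions were left out, and the rest were summed by symbol. Testing took the genes that reached 0.5 RPKM in 4 or more libraries, on log2(RPKM + 0.5), which understates changes of low genes, and used limma 3.58.1 in R 4.3.3 (trend, robust, all 16 libraries, 1 mean per group, called under an adjusted p of 0.05). The test was checked on simulated data. Low values behave as whole reads over GENCODE M21 transcript lengths and gave the depth. Python 3.11.15 with pandas 2.3.3 and numpy 2.4.6 did the rest, and matplotlib 3.10.9 drew the figures. Promoters come from RefSeq.

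The tested contrasts were Fgf8b minus control for either depot, brown minus white for either treatment, and brown response minus white response. All 43 members were named, and of each other list at most the 3 called genes with the largest difference and a mean of at least 1 RPKM per comparison. The members and lists were chosen with earlier results of these data known. Alternatives changed the pseudocount (0.1 or 1), low-value filter, scaling, entries summed, moderation and libraries.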

Additional observations from a re-analysis of the deposited data

Results flagged for a closer look

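The responses of 38 members to Fgf8b differed between depots by the limma test of that difference, and each value below is a log2 difference of responses, brown minus white. Among the stress factors it was Atf4 -0.35, Atf5 -0.31, Ddit4 -1.08, Trib3 -1.70, Chac1 -1.94, Cebpg -0.43, Sesn2 -0.70 and Nupr1 -1.15. Among the serine and one-carbon enzymes it was Psat1 -0.25, Psph -1.0, Shmt2 -0.51, Mthfd2 -0.63 and Aldh1l2 -1.38. Among the other amino acid enzymes it was Asns -1.11, Aldh18a1 -0.87, Pycr1 -1.19, Gpt2 -1.16, Cth -1.28 and Cbs 1.34. Among the amino acid transporters it was Slc7a11 -1.51, Slc7a5 -0.52, Slc3a2 -0.25, Slc7a1 -0.39, Slc1a4 -0.85 and Slc6a9 -1.17. Among the tRNA synthetases it was Aars -0.26, Cars -0.56, Eprs -0.15, Gars -0.54, Iars -0.25, Lars -0.44, Mars -0.41, Nars -0.43, Sars -0.34, Tars -0.32, Vars 0.26, Wars 0.38 and Yars -0.26. The negative ones are members whose brown response was lower than the white one, and Cbs, Vars and Wars are the positive ones.

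Single libraries also stood apart within their group of 4. In 12 of 172 groups of members' levels the highest or lowest library lay far from the other 3 by Dixon's gap test, where chance gives about 1 in 20 groups. Library 15, the brown control that stood apart over all genes, accounts for 4 of them, low for Atf5 (262 RPKM against 308 to 312 in the other brown controls) and Vars (16.7 RPKM against 21 to 21.8), and high for Cebpg (24.3 RPKM against 20.8 to 21.3) and Eprs (103 RPKM against 92.4 to 93.5). Among brown Fgf8b libraries, Atf4 was high in library 10 (236 RPKM against 215 to 216), Slc7a5 high in library 12 (39.9 RPKM against 37.9 to 38.1), Lars and Mars low in library 14 (36.4 RPKM against 38.8 to 39.3 and 34.7 RPKM against 36.8 to 37.1), and Shmt2 and Aars low in library 16 (83.1 RPKM against 89.4 to 89.8 and 63.9 RPKM against 67.8 to 68.4). Among white libraries, Atf5 was high in Fgf8b library 2 (185 RPKM against 159.7 to 163), and Slc7a1 high in control library 5 (18 RPKM against 17.5 to 17.6).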

How the results depend on the processing

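No paired analysis was possible because no library number is shared between groups and the labels do not pair neighbouring libraries. Over 27 alternatives to the processing, 5657 of 5762 member values kept their direction and side of the threshold, 54 lost the call, 23 gained it and 28 changed sign, of which 0 were called before or after. Leaving out each library in turn gave 20 to 22 members higher and 19 lower in white, 6 to 7 higher and 31 to 32 lower in brown, 2 to 4 higher and 10 to 14 lower between controls, 3 higher and 38 lower between Fgf8b groups, and 3 positive and 34 to 36 negative differences of responses. Brown against white controls, 5 members were higher with RefSeq entries alone or 1 transcript per gene, against 3. Chac1 and Cbs gained the call there, and the cause was not tested. The values that changed sign were small. Median-of-ratios factors gave -0.0057 for Ddit4 and -9.6e-06 for Nars between controls and 0.0015 for Vars between Fgf8b groups. Upper-quartile factors gave -0.022 for Iars and -0.040 for Lars in brown and -0.0047 for Slc38a2 in the difference of responses. Leaving out 1 library at a time gave -0.045 to 0.026 for Cebpg in white and -0.021 to 0.015 for Nars in brown. Between controls it gave -0.036 to 0.043 for Ddit4, -0.014 to 0.022 for Nars, -0.064 to 0.0048 for Aldh18a1, -0.031 to 0.029 for Slc3a2 and -0.012 to 0.028 for Gars. Between Fgf8b groups it gave -0.034 to 0.017 for Vars and -0.038 to 0.012 for Slc38a2, and in the difference of responses -0.12 to 0.072 for Atf3 and -0.0044 to 0.061 for Slc38a2. Depth limits low genes such as Cbs and Atf3 most.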
